A study of Rattus norvegicus with 64 samples.

Results

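Whole blood of saline rats kept at 39 C was compared with whole blood of saline control rats kept at 16 C. The comparison held 21 of the 64 rats of the series, 16 at 39 C and 5 at 16 C, chosen by their group labels. All were adult male Sprague-Dawley rats from Charles River, 85 to 90 days old. Every rat received 4 saline injections given 2 h apart, and blood was taken by cardiac puncture 3 h after the last one, so the injections and the puncture were common to both groups. The rats at 39 C were in a hot environment and are labelled hyperthermic, and the rats at 16 C were in a cool environment. No drug was given to either group. Another saline group, 6 rats at 22.5 C, was used only to place levels beside those of the other 2 groups. A separate fit of 50 rats, with a project code from the file names as a term, also used rats given amphetamine. These amphetamine rats were kept at 22.5 C, labelled hyperthermic, or at 16 C, labelled normothermic. Blood was frozen at once, RNA was depleted of globin mRNA, and polyadenylated RNA was sequenced, so a value is the abundance of a transcript in mixed blood cells. A lower value can come from fewer cells of a type or from less RNA per cell, and these cannot be told apart in bulk blood.

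The heat shock response is the transcriptional program by which cells answer protein unfolding. Heat shock factor 1 binds short inverted repeats, the heat shock elements, in front of chaperone genes. The chaperones so made include Hsp70 and Hsp110 proteins, which bind exposed hydrophobic stretches, the Hsp90 proteins and their co-chaperones, which finish the folding of kinases and receptors, J-domain proteins, which hand clients to Hsp70, chaperonins, which fold proteins inside a cage, and small Hsp proteins, which hold unfolded clients. Leukocytes, platelets and reticulocytes all contribute mRNA to whole blood.

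The libraries held 21349000 to 39570000 counts at 39 C and 22818000 to 25979000 at 16 C, rounded to 5 significant digits. No difference of group means in 6 library measures passed exact two-sided permutation over 20349 splits, with the smallest Benjamini-Hochberg adjusted p = 0.294. With 5 cool rats this test can miss differences, and it does not address spread. Hemoglobin genes took 2.78 to 33.3% of the counts at 39 C and 4.99 to 10.0% at 16 C. All 5 rats at 16 C shared 1 project code in the file names, and the 16 rats at 39 C came from 8 project codes. Only 39 C rat 2 shared the project of the cool rats, so temperature and project cannot be told apart in the other 15, and the values of rat 2 for the main genes and lists are given separately. Rats 2, 9 and 12 at 39 C stood apart from the others. Their median correlation with the remaining rats over 9247 genes was 0.811, 0.786 and 0.832, against 0.878 to 0.931 for the other 18. Blood of these 3 rats also carried transcripts of liver-made plasma proteins at 10210, 16450 and 5799 CPM (counts scaled to a common library total), against 3.49 to 91.5 in the other 13 rats at 39 C and 2.86 to 17.1 in the rats at 16 C.

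Transcripts of cytosolic chaperones were higher in the rats at 39 C than in those at 16 C. Transcripts of the interferon response, of neutrophil calgranulins, of cytotoxic lymphocytes and of some T-cell genes were lower. Many of the neutrophil and cytotoxic differences no longer passed the test once the project code was added as a term. Of 17486 genes listed in all 21 files, 12568 had at least 10 counts in at least 5 rats and were tested. A gene was called when the adjusted p of edgeR's quasi-likelihood test was under 0.05 and the absolute log2 fold change was over 0.58. The test called 945 genes higher at 39 C, 7.52% of those tested, and 619 lower, 4.93%. Every rat at 39 C lay above every rat at 16 C in 133 genes, 1.06% of those tested, and below every one in 203 genes, 1.62%. The median log2 fold change of all genes tested was 0.09. The counts of calls depended on the small cool group, since leaving out any 1 of its 5 rats left 451 to 540 genes higher and 408 to 458 lower. Without 39 C rats 2, 9 and 12 the test called 1070 genes higher and 689 lower. These included 90.5% of the higher and 92.4% of the lower calls made with all 21 rats.

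**Figure D1:**
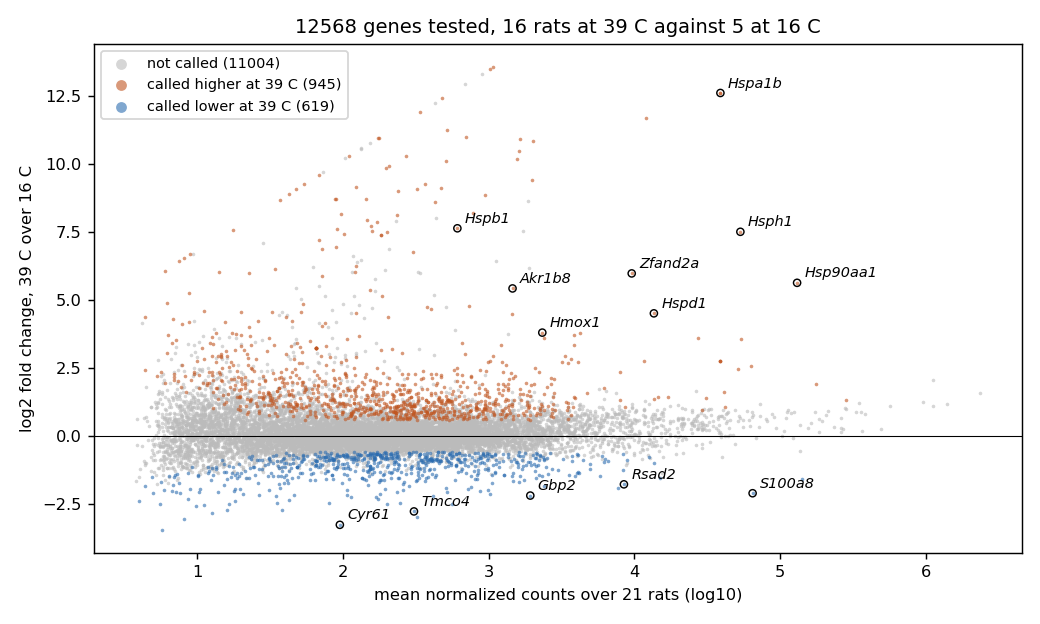
Each point is 1 of the 12568 genes tested, with the mean normalized count over 21 rats (log10) on the horizontal axis and the log2 fold change of 39 C over 16 C on the vertical axis, and orange and blue points are genes called higher and lower. Hspa1b, Hsph1 and Hsp90aa1 combine high mean counts with log2 fold changes of 12.60, 7.50 and 5.62, while S100a8, Rsad2 and Gbp2 are among the abundant genes that lie below 0.

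Genes of the Hsp70 and Hsp110 families rose at 39 C. In all, 8 of the 13 tested identifiers in this list were called higher and 0 lower, with Hspa1b entered under both of its identifiers. The list's median log2 fold change was 2.22, and 7.52% of all genes tested were called higher. Levels are given as normalized counts, the rounded counts divided by DESeq2's median-of-ratios size factors over the 21 rats, and compare a gene only with itself. Hspa1b, the stress-inducible cytosolic Hsp70, was 8.77, 10.1, 5.56, 4.69 and 11.1 normalized counts in 16 C rats 1 to 5. At 39 C it ran from 1265 through a median of 33648 to 210430 normalized counts (log2 fold change 12.60 ± 1.46 (SE), adjusted p = 1.15e-05). The groups did not overlap, and the lowest rat at 39 C was still over 1000 counts. A pair of identifiers, ENSRNOG00000045654 and ENSRNOG00000050647, carried this symbol with identical counts in every rat, so they give 1 measurement and near-identical copies of the gene cannot be separated.

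Hsph1 (ENSRNOG00000000902), the Hsp110 protein that exchanges the nucleotide of Hsp70, was 503, 485, 342, 329 and 263 normalized counts in 16 C rats 1 to 5. At 39 C it ran from 12543 through a median of 50573 to 241950 (log2 fold change 7.50 ± 0.80 (SE), adjusted p = 5.21e-06). Each rat at 39 C was above each at 16 C. Hspa8, the constitutive cytosolic Hsp70, was already abundant in the cool rats, at 11518, 13271, 12251, 11619 and 8549.6 normalized counts, and ran from 20946 through a median of 57954 to 152740 at 39 C (log2 fold change 2.47 ± 0.42 (SE), adjusted p = 7.02e-04). Its groups did not overlap either, although its change was smaller than those of Hspa1b and Hsph1. The remaining identifiers called in this list carried the symbols Hspa1l, Hspa4l, Hspa12a and, in another copy, Hspa8. Hspa1l is a close copy of the Hspa1 genes, so reads may have been split between them.

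Hsp90 proteins and their partners followed. Of 24 tested members of the list of Hsp90, co-chaperones and small Hsp proteins, 11 were called higher and 0 lower. Their median log2 fold change was 0.79, and 7.52% of all genes tested were called higher. Hsp90aa1, the inducible cytosolic Hsp90, was 3406, 3304, 4444, 3545 and 2469 normalized counts in 16 C rats 1 to 5 and ran from 17391 through a median of 135060 to 484080 at 39 C (log2 fold change 5.62 ± 0.75 (SE), adjusted p = 6.51e-05). Hsp90ab1, the constitutive form, was 5630.1, 7356, 5331, 5121 and 5710.3 in the cool rats and ran from 13436 through a median of 58108 to 155840 at 39 C (log2 fold change 3.56 ± 0.52 (SE), adjusted p = 1.84e-04). Neither gene overlapped between groups. Bag3, which links Hsp70 to selective autophagy, was 91.2, 94.7, 63, 61 and 104 normalized counts at 16 C and ran from 286 through a median of 1159 to 5766 at 39 C (log2 fold change 4.48 ± 0.71 (SE), adjusted p = 3.59e-04). Hspb1, the small heat shock protein Hsp27, was nearly absent at 16 C, with raw counts of 16, 3, 1, 2 and 1, and ran from 10.1 through a median of 525 to 2399 normalized counts at 39 C (log2 fold change 7.62 ± 1.28 (SE), adjusted p = 6.44e-04). In Hspb1, 15 of 16 rats at 39 C exceeded the highest cool rat. The others called in this list were Ahsa1, Ahsa2, Chordc1, Fkbp4, Hspbp1, Ppid and Stip1, all of which bind Hsp70 or Hsp90.

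**Figure D2:**
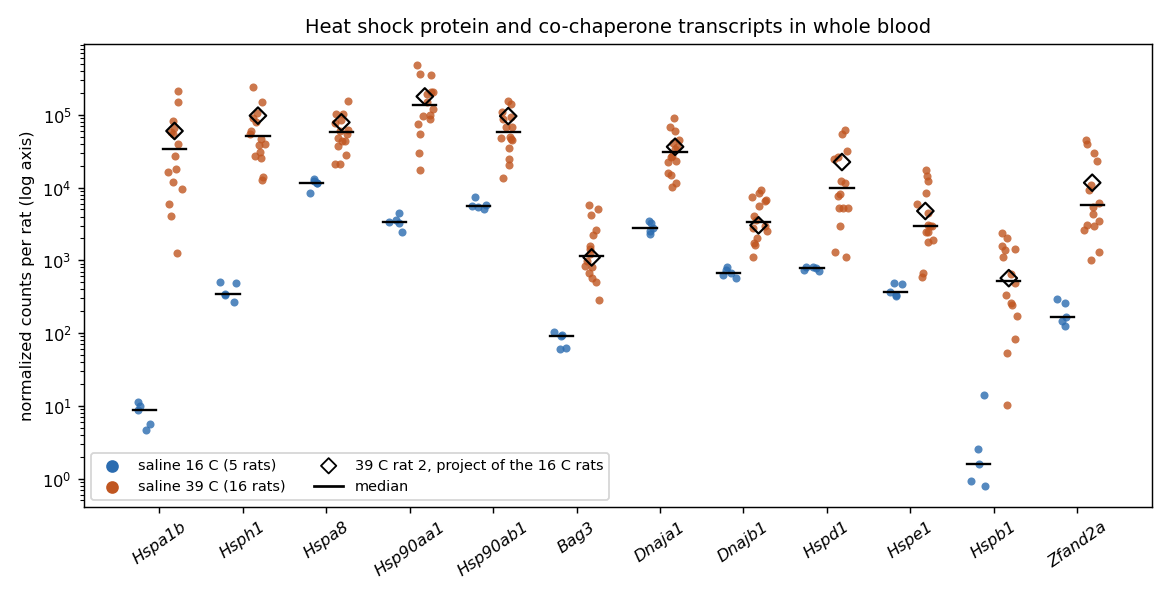
Normalized counts of 12 chaperone and stress genes in each rat on a log axis, with 16 C rats in blue, 39 C rats in orange, medians as bars and 39 C rat 2, from the project of the cool rats, as an open diamond. In every gene except Hspb1 the orange points lie wholly above the blue ones, and rat 2 falls inside the range of the other rats at 39 C.

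J-domain genes showed no common direction. Of 31 tested members, 4 were called higher and 3 lower, with a median log2 fold change of 0.15. Over all genes tested, 7.52% were called higher and 4.93% lower. Dnaja1, a cytosolic Hsp40, was 2779.5, 3284, 3504, 2333 and 2545 normalized counts in 16 C rats 1 to 5 and ran from 10176 through a median of 30561 to 91743 at 39 C (log2 fold change 3.60 ± 0.50 (SE), adjusted p = 9.13e-05). Dnajb1, the stress-inducible Hsp40, was 806, 669, 739, 629 and 566 at 16 C and ran from 1102 through a median of 3313 to 9390.3 at 39 C (log2 fold change 2.67 ± 0.46 (SE), adjusted p = 8.63e-04). Dnaja4 rose as well, with log2 fold change 1.75 ± 0.33 (SE), adjusted p = 0.00168, and Dnajc16 was also called higher. DNAJC9, a histone co-chaperone, went the other way, from 221 to 286 at 16 C to 75.7 to 199 (median 145) at 39 C without overlap (log2 fold change -0.90 ± 0.21 (SE), adjusted p = 0.00694), and Dnajc18 and Dnajc24 were also called lower.

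Chaperonins were called higher in 6 of 10 tested members and lower in none, where 7.52% of all genes tested were called higher. The list's median log2 fold change was 0.62 and its lowest member was at 0.52. Hspd1 and Hspe1, the mitochondrial Hsp60 and its lid Hsp10, led this list. Hspd1 was 728, 820.0, 804, 786 and 721 normalized counts at 16 C and ran from 1101 through a median of 9793 to 61268 at 39 C (log2 fold change 4.50 ± 0.91 (SE), adjusted p = 0.00241). Hspe1 was 321, 366, 484, 467 and 336 at 16 C and ran from 594 through a median of 2986 to 17241 at 39 C (log2 fold change 3.76 ± 0.73 (SE), adjusted p = 0.00196). The lowest rats at 39 C lay close to the cool rats in Hspd1 although the groups did not overlap. In the cytosolic TRiC complex the changes were smaller, and Cct3 (log2 fold change 1.01 ± 0.24 (SE), adjusted p = 0.0088) and Tcp1 (log2 fold change 0.93 ± 0.31 (SE), adjusted p = 0.0493) overlapped between groups. The call of Tcp1 was lost in 26 of 34 other settings, leaving out any 1 cool rat among them. Cct4 and Cct8 were called higher too.

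Chaperones of the endoplasmic reticulum and the heat shock factors themselves were mostly not called. Of 22 tested endoplasmic reticulum genes, 1 was called higher, DDIT3, a transcription factor of the unfolded protein response (log2 fold change 1.16 ± 0.33 (SE), adjusted p = 0.0219), and 0 lower, with a median log2 fold change of 0.23. Of 3 tested heat shock factor genes edgeR called 0, with 0 at an unadjusted p under 0.05, and DESeq2 called 0.

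Chaperone level varied widely among the rats at 39 C and little among the rats at 16 C. Counts of 80 chaperone identifiers made up 0.321 to 0.389% of all counts at 16 C, with a median of 0.368%, and 0.767 to 6.17% at 39 C, with a median of 1.53%. The same rats tended to be high or low across genes. Among 28 distinct chaperones called higher, rat 11 was the highest of the 16 in 16 genes and among the 4 highest in 25, and rat 7 was among the 4 highest in 23. Rat 14 was the lowest in 19 genes and among the 4 lowest in 26, and rat 4 was among the 4 lowest in 27. Rat 2 was among the 4 highest in 6 genes and among the 4 lowest in 0.

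Promoter sequence was examined because these genes moved together. RefSeq promoters of build GRCr8, 250 bases before to 50 bases after the start, were matched for 8602 of the 12568 tested identifiers. Matching was by Ensembl identifier or, where that failed, by symbol. The heat shock element was searched on both strands as GAANNTTC and TTCNNGAA and as the alternation of 3 such units, in which the shorter motifs overlap. Of 27457 promoters, 8.34% held GAANNTTC, 8.49% held TTCNNGAA, 15.4% held either and 0.736% held the 3-unit form. Of 24 promoters of chaperones called higher, 13 (54.2%) held either short motif and 7 (29.2%) the 3-unit form. Of 36 promoters of listed chaperones that were not called, 9 held a short motif and 0 the 3-unit form. Among all genes called higher, 10.9% of 650 promoters held a short motif and 1.69% the 3-unit form, and among those called lower the shares were 14.9% and 0.481% of 416. The 3-unit matches of the chaperones called higher that lie before the start are shown because they carry this pattern, each 5′ to 3′ on the gene's strand with the matched letters in capitals.
Hspa8, chr8:50080293-50080321, plus strand: gcgagcgtGAAAGTTCCAGAAcgctgcgg
Hspd1, chr9:64084254-64084287, minus strand: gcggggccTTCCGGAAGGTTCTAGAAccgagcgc
Hspe1, chr9:64084254-64084287, plus strand: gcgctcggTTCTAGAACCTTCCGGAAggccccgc
Hsph1, chr12:10427324-10427352, plus strand: gccgcagaTTCTGGAAAGTTCtcctcagt
Hspd1 and Hspe1 are transcribed away from each other, so their lines are the same stretch read on opposite strands, with the first capital 242 bases before the Hspd1 start and 65 bases before the Hspe1 start. In Hspa8 the first capital lay 213 bases before the start and in Hsph1 36 bases before it. Cct4, Chordc1 and Dnaja1 held a 3-unit match that reached past the start.

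The whole 250 bases before the start are given for Hsph1 and Hspb1, which had the largest fold changes among chaperones with a promoter entry and a single clear identifier, with matches to either short motif or the 3-unit form in capitals.
Hsph1, chr12:10427118-10427367, plus strand: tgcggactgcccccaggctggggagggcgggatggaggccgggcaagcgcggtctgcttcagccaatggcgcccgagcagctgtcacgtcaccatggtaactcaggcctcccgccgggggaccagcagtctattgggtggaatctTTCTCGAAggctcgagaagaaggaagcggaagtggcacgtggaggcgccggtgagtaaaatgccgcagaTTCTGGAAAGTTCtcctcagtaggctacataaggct
Hspb1, chr12:26432302-26432551, minus strand: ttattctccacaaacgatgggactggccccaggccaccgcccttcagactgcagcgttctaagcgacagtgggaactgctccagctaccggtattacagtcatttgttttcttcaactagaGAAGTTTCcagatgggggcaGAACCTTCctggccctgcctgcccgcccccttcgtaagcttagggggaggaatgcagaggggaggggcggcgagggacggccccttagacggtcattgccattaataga
Hspb1 held GAANNTTC but not the 3-unit form in its window. A match describes letters and says nothing of whether a factor bound there in these rats.

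Genes of other stress programs rose beside the chaperones in part. Zfand2a, an arsenite- and heat-inducible zinc finger protein that works with the proteasome, was 259.6, 298, 148, 125 and 165 normalized counts at 16 C and ran from 1025 through a median of 5770.1 to 45232 at 39 C without overlap (log2 fold change 5.97 ± 1.03 (SE), adjusted p = 8.14e-04). The 36 tested genes of the proteasome and ubiquitin list had a median log2 fold change of 0.09. Among metallothionein and Nrf2 target genes, which answer oxidants and metals, 5 of 19 were called higher and 0 lower. Of all genes tested, 7.52% were called higher. Hmox1, heme oxygenase, was 192, 183, 219.5, 306 and 173 at 16 C and ran from 442 through a median of 1468 to 13823 at 39 C (log2 fold change 3.79 ± 0.79 (SE), adjusted p = 0.00322), and SRXN1, sulfiredoxin, also showed no overlap (log2 fold change 3.68 ± 0.72 (SE), adjusted p = 0.00205). Mt1a, Osgin1 and Gclc completed this count. The call of Mt1a was lost in 20 of 34 other settings, among them without 39 C rats 2, 9 and 12. These rats held its highest levels, 1204.7, 1987 and 1048.5 normalized counts, against 79.0 to 188.6 at 16 C. Akr1b8, an aldo-keto reductase outside the list, was 28.1, 18.4, 57.4, 49.3 and 68.4 at 16 C and ran from 159.9 through a median of 1388 to 5098 at 39 C (log2 fold change 5.41 ± 0.76 (SE), adjusted p = 1.00e-04).

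In the hypoxia and glycolysis list, 3 of 29 tested genes were called higher and 0 lower, with a median log2 fold change of 0.56. P4ha1, a collagen prolyl hydroxylase, was 109.6, 159, 226, 256 and 141 normalized counts at 16 C and ran from 404 through a median of 1229.5 to 2802 at 39 C without overlap (log2 fold change 2.92 ± 0.37 (SE), adjusted p = 3.98e-05). Egln3, an oxygen-sensing hydroxylase, and Vegfa, a vascular growth factor, were the others, with log2 fold changes of 1.8 ± 0.35 (adjusted p = 0.00179) and 1.42 ± 0.30 (adjusted p = 0.00383). The share called, 3 of 29, was near that of all genes.

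Immediate early genes, transcription factors induced within minutes of a stimulus, were called higher in 8 of 24 tested and lower in none. Their median log2 fold change was 1.04, and 7.52% of all genes tested were called higher. Fos was 663, 251, 458, 387 and 359 normalized counts at 16 C and ran from 728 through a median of 1218 to 3277 at 39 C without overlap (log2 fold change 1.70 ± 0.32 (SE), adjusted p = 0.0016). Egr1 was 33.3, 45.3, 18.5, 28.9 and 25.4 at 16 C and ran from 66.6 through a median of 157 to 797 at 39 C, again without overlap (log2 fold change 3.17 ± 0.66 (SE), adjusted p = 0.00307). Jun (log2 fold change 2.72 ± 0.69 (SE), adjusted p = 0.0127) and Klf6 (log2 fold change 1.48 ± 0.41 (SE), adjusted p = 0.0207) rose with overlap. Fosb, Fosl1, Nr4a2 and Nr4a3 were the remaining calls. With the project term 4 of 24 were called higher, where 6.17% of all genes were, and Jun did not pass (adjusted p = 0.0528).

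Glucocorticoid-responsive genes gave no common direction. Of 19 tested, 4 were called higher, Cxcr4, Errfi1, Nr3c1 and Per1, and 1 lower, Nfkbia, the inhibitor of NF-kB. The call of Nr3c1 was lost in 17 of 34 other settings. The usual responders Fkbp5 and Tsc22d3 had log2 fold changes of 0.27 ± 0.26 (adjusted p = 0.496) and -0.60 ± 0.26 (adjusted p = 0.123) and did not pass the test. In the clock list, 2 of 13 were called higher, Per1 and Bhlhe40, and 1 lower, Per2. For comparison with both lists, 7.52% of all genes tested were called higher and 4.93% lower. Per1 was 125, 134, 104, 123 and 144 normalized counts at 16 C and ran from 132 through a median of 295 to 581 at 39 C (log2 fold change 1.25 ± 0.30 (SE), adjusted p = 0.00847). Per2 was 546, 764, 683, 651 and 567 at 16 C and ran from 88.9 through a median of 229 to 367 at 39 C (log2 fold change -1.46 ± 0.24 (SE), adjusted p = 4.56e-04). The 2 period genes therefore moved apart, and only Per2 showed no overlap between groups.

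Cytokine and NF-kB genes were called in both directions, 4 higher and 4 lower of 29 tested. The shares of all genes tested were 7.52% higher and 4.93% lower. Ptgs2, the inducible cyclooxygenase (log2 fold change 2.13 ± 0.67 (SE), adjusted p = 0.0375), Rel (log2 fold change 1.31 ± 0.39 (SE), adjusted p = 0.0274) and Il18 (log2 fold change 1.27 ± 0.42 (SE), adjusted p = 0.0486) rose, as did Il1a. The call of Il18 was lost in 25 of 34 other settings, among them leaving out any 1 cool rat and the project term (adjusted p = 0.324). Tnf fell, from 371, 1252, 703.05, 1029.9 and 521 normalized counts in 16 C rats 1 to 5 to a range of 67.6 to 525 (median 276) at 39 C (log2 fold change -1.40 ± 0.35 (SE), adjusted p = 0.0126), and Ccl5, Socs3 and Nfkbia were called lower as well. Il1b did not pass the test (log2 fold change 0.00 ± 0.35 (SE), adjusted p = 0.995). Of 18 Toll-like receptor pathway genes 3 were called higher, Tlr5, Tlr7 and Traf6, with log2 fold changes of 1.43, 0.96 and 0.78. The call of Tlr5 was lost in 18 of 34 other settings, and those of Tlr7 and Traf6 in 8 each.

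**Figure D3:**
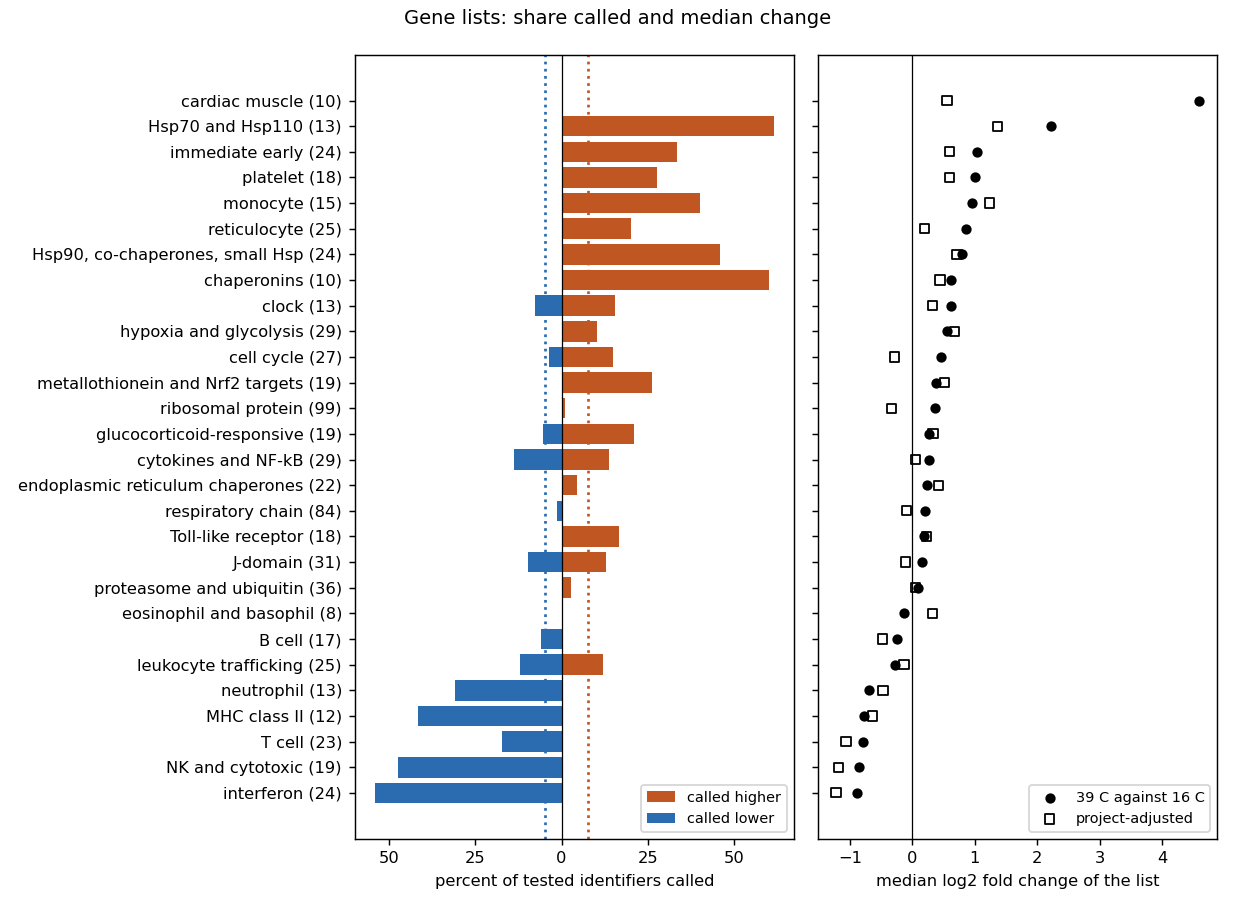
For each gene list (tested identifiers in parentheses), the left panel shows the percent called higher (orange, to the right) and lower (blue, to the left), with dotted lines at 7.52% and 4.93% for all genes, and the right panel shows the list's median log2 fold change in the comparison of 16 with 5 rats (dots) and after adjustment for project (squares). In the left panel the Hsp70 and Hsp110, the chaperonin and the Hsp90 and co-chaperone lists reach furthest right, and interferon and cytotoxic genes furthest left. In the right panel the dot of the heart muscle list, at 4.59, lies furthest right.

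Cell type markers shifted between groups. Neutrophil genes were called lower in 4 of 13 tested and higher in none, where 4.93% of all genes tested were called lower. The summed share of the 18 neutrophil markers was 1634 to 14680 CPM at 39 C (median 6490) and 15270 to 35750 at 16 C (median 24420), without overlap. S100a8 and S100a9 made up most of this sum, and the other 16 markers overlapped, at 419.7 to 3142 CPM at 39 C (median 1504) and 1659 to 3019 at 16 C (median 2506), with rat 2 the highest of all. S100a8, a calgranulin of neutrophils and monocytes, was 122620, 226480, 200340, 142720 and 87275 normalized counts at 16 C and ran from 7353 through a median of 36542 to 64675 at 39 C (log2 fold change -2.11 ± 0.33 (SE), adjusted p = 2.96e-04). S100a9, its partner, fell with it (log2 fold change -1.60 ± 0.31 (SE), adjusted p = 0.00205), and so did Camp, the cathelicidin (log2 fold change -1.57 ± 0.38 (SE), adjusted p = 0.00862), and Alpl, alkaline phosphatase (log2 fold change -1.78 ± 0.40 (SE), adjusted p = 0.00571).

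Among lymphocyte lists, NK and cytotoxic genes were called lower in 9 of 19 and T-cell genes in 4 of 23, where 4.93% of all genes were. B-cell genes were called lower in 1 of 17, near that background, and ran from -1.32 to 0.95 on the log2 scale. No gene of these 3 lists was called higher. Cd8a, the co-receptor of cytotoxic T cells, was 1412, 911, 1279, 1197 and 1348 normalized counts at 16 C and ran from 351 through a median of 574 to 1225 at 39 C (log2 fold change -0.89 ± 0.25 (SE), adjusted p = 0.0235). Cd3e, a chain of the T-cell receptor complex, was 101 to 1012 (median 302) at 39 C and 676 to 853 at 16 C and did not pass the test (log2 fold change -0.83 ± 0.43 (SE), adjusted p = 0.194), nor did the B-cell gene Cd79b (log2 fold change -0.80 ± 0.37 (SE), adjusted p = 0.14). Ncr1, an NK receptor, was 313, 329, 547, 476 and 366 at 16 C and ran from 40.1 through a median of 139.6 to 328 at 39 C (log2 fold change -1.34 ± 0.32 (SE), adjusted p = 0.0085), and Gzmk, a granzyme, fell as well (log2 fold change -1.61 ± 0.36 (SE), adjusted p = 0.00578). The summed T-cell markers were 99.6 to 1295 CPM at 39 C (median 238) and 678 to 813 at 16 C, so the highest rat at 39 C exceeded all the cool ones.

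Antigen presentation genes of MHC class II were called lower in 5 of 12 and higher in none, with a median log2 fold change of −0.78. The share called lower was 4.93% over all genes tested. RT1-Ba, an MHC class II chain, was 3065, 4023, 5013, 6343 and 4276 normalized counts at 16 C and ran from 677 through a median of 1435 to 4516 at 39 C (log2 fold change -1.48 ± 0.30 (SE), adjusted p = 0.00241). RT1-DOa, RT1-Da, RT1-Bb and RT1-Db1 were the other calls. All rats at 39 C but 1 were below every rat at 16 C in RT1-Ba, RT1-Da and RT1-DOa.

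Monocyte, platelet and reticulocyte genes were called higher, in 6 of 15, 5 of 18 and 5 of 25, with no gene lower. Among all genes tested, 7.52% were called higher and 4.93% lower. Cd14, the monocyte lipopolysaccharide co-receptor, was 240.3, 243, 176, 371 and 111 normalized counts at 16 C and ran from 86.6 through a median of 835 to 3677 at 39 C (log2 fold change 2.39 ± 0.75 (SE), adjusted p = 0.0372), and Vcan, versican, rose with it (log2 fold change 2.34 ± 0.74 (SE), adjusted p = 0.0389). Nos2, inducible nitric oxide synthase, was listed under 2 identifiers, of which 1 rose. Arg1 in the monocyte list is also a liver enzyme. Thbs1, thrombospondin of platelets and monocytes, was 93, 443, 184, 225 and 316 at 16 C and ran from 519 through a median of 1870.3 to 8961 at 39 C without overlap (log2 fold change 3.59 ± 0.73 (SE), adjusted p = 0.0025). Tfrc, the transferrin receptor of immature red cells, was 372, 355, 549, 596 and 393 at 16 C and ran from 541 through a median of 1933 to 8560.5 at 39 C (log2 fold change 2.49 ± 0.63 (SE), adjusted p = 0.0124). The summed monocyte markers nevertheless overlapped wholly, at 1870 to 31000 CPM at 39 C and 8779 to 20170 at 16 C, and rat 2 was the highest of all 21. The summed platelet markers overlapped too, with a median of 5173 CPM at 39 C and 5714 at 16 C. Reticulocyte markers summed to 49510 to 350500 CPM at 39 C and 75190 to 126600 at 16 C. In rat 2, 20 of 25 reticulocyte genes were lower than in the cool group, with a median log2 fold change of -0.58. Of the 25, 18 lay below all 5 cool rats, where 31.2% of all genes tested did in this rat. The platelet genes of rat 2 were split, 10 higher and 8 lower, with a median of 0.02. The part of these shifts in cell makeup in the other gene changes was not tested.

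Interferon response genes held the highest count of lower calls among the lists. Of 24 tested, 13 were called lower and 0 higher, with a median log2 fold change of −0.88. Among all genes tested, 4.93% were called lower. Gbp2, a guanylate-binding protein induced by interferon, was 3299, 7263, 5311, 4234 and 3742 normalized counts at 16 C and ran from 545 through a median of 904 to 2019 at 39 C (log2 fold change -2.19 ± 0.23 (SE), adjusted p = 4.07e-06). Herc6, an antiviral ubiquitin-like ligase, was 1381, 1003, 998, 773 and 1637 at 16 C and ran from 154 through a median of 302 to 459 at 39 C (log2 fold change -1.92 ± 0.21 (SE), adjusted p = 5.21e-06). These 2 did not overlap. Rsad2, viperin, ran from 1513 through a median of 4896 to 16040 at 39 C against 26704, 10818, 17252, 19796 and 17313 at 16 C (log2 fold change -1.78 ± 0.34 (SE), adjusted p = 0.00176), and 15 of 16 hot rats were below every cool rat. Cxcl10, an interferon-induced chemokine, fell too (log2 fold change -2.35 ± 0.45 (SE), adjusted p = 0.00171). Other calls included Ifi44, Ifih1, Isg15, Mx1, Mx2, Parp14, Stat2 and Usp18.

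The remaining lists showed mixed or small changes. In the cell cycle list, Cenpf, Mki67, Plk1 and Top2a were called higher and Rrm2, a ribonucleotide reductase subunit, lower, of 27 tested. The calls of Top2a, Mki67 and Cenpf were lost in 23, 14 and 10 of 34 other settings. For all genes tested the shares were 7.52% higher and 4.93% lower. Rrm2 was 7574, 6996, 4269, 3023 and 4949 normalized counts at 16 C and ran from 548 through a median of 1406 to 2685 at 39 C without overlap (log2 fold change -1.86 ± 0.29 (SE), adjusted p = 3.33e-04). Of the cold-inducible RNA-binding proteins, Cirbp had log2 fold change -0.99 ± 0.42 (SE), adjusted p = 0.112 and Rbm3 log2 fold change -0.86 ± 0.32 (SE), adjusted p = 0.0735, and both had an unadjusted p under 0.05 but neither passed the adjusted threshold with all 21 rats in edgeR or DESeq2. Leaving out 1 rat at 39 C brought Rbm3 past it in 3 cases (rats 1, 2 and 16) and Cirbp in 1 (rat 1). Ribosomal protein genes were called in 1 of 99 (RPS29, higher) and respiratory chain genes in 1 of 84 (Atp5f1, lower). Leukocyte trafficking genes were called higher in 3 of 25 and lower in 3, with Icam2 lower without overlap (log2 fold change -1.30 ± 0.30 (SE), adjusted p = 0.00622). Of 8 eosinophil and basophil genes and 10 heart muscle genes edgeR called 0, with 1 and 7 at an unadjusted p under 0.05, and DESeq2 called 1 and 0. The heart muscle list had a median log2 fold change of 4.59 over 10 identifiers, and of 0.55 over the 16 tested with the project term. Its summed markers were 2.38 to 698 CPM at 39 C (median 7.05) and 9.81 to 31.1 at 16 C (median 16.9). The 4.59 therefore does not describe the typical rat at 39 C. In 39 C rat 2 the list's median was -0.53.

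The largest falls were taken among genes whose groups did not overlap and in which rat 2 lay below the cool rats. Tmco4, a transmembrane protein, was 920.1, 1429, 867, 557 and 642 normalized counts at 16 C and ran from 56.9 through a median of 128 to 183 at 39 C (log2 fold change -2.78 ± 0.21 (SE), adjusted p = 6.76e-08). Cyr61, a matricellular protein, was 420.1, 476, 271, 192 and 153 at 16 C and ran from 3.45 through a median of 31.5 to 59.5 at 39 C (log2 fold change -3.27 ± 0.34 (SE), adjusted p = 4.07e-06). Mdm1, a microtubule-binding protein, was 268, 527, 502, 482 and 457 at 16 C and ran from 39.9 through a median of 92.1 to 133 at 39 C (log2 fold change -2.32 ± 0.20 (SE), adjusted p = 2.02e-07). Each was lower in every hot rat than in every cool one. Il22ra2, the soluble interleukin 22 receptor, fell without overlap as well (log2 fold change -2.98 ± 0.31 (SE), adjusted p = 4.07e-06), as did Clec4b2, a C-type lectin of myeloid cells (log2 fold change -2.51 ± 0.38 (SE), adjusted p = 2.34e-04). Ugt8, Sema4f, Card10, 4930503B20Rik and 9130014G24Rik completed the 10 largest falls of this kind, with log2 fold changes from -2.71 to -2.21.

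The shared project allowed 1 rat to be set against the cool group without a project difference. Taking 39 C rat 2 alone against the 5 rats at 16 C, with the spread pooled over 21 rats, edgeR called 31 genes higher, 0.247% of those tested, and 1 lower, Tmco4, 0.00796%. The 31 included both Hspa1b identifiers, Hsph1, Stip1, Hsp90aa1, Hsp90ab1, Dnaja1, Hspb1, Zfand2a, Akr1b8, P4ha1 and Thbs1. Rat 2 lay above all 5 cool rats in 30.5% of the genes tested and below all 5 in 31.2%, so such a position was common. Hspa1b was 59984 normalized counts in rat 2, Hsph1 97464, Hsp90aa1 179020 and Dnaja1 36407, each above all 5 cool rats. Gbp2 was 841, Herc6 203 and S100a8 64675, each below all 5. Hspa8 was 78858 in rat 2, Hspd1 22455, Fos 1545 and Tfrc 875, each above the cool rats, although none of these 4 passed the test in this rat alone. RT1-Ba was 677, Ncr1 143, Per2 288 and Rrm2 2399, below the cool rats and also without passing the test. Tnf, at 518, lay inside the range of the cool rats. Of 27 cell cycle genes, 20 were lower in rat 2 than in the cool group, with a median log2 fold change of -0.52. This comparison and that of all 16 rats use the same 5 cool rats, so they are not independent. Rat 2 is also 1 of the 16. In genes without overlap between the groups, such as Hspa1b, Hsph1, Gbp2 and Per2, its side of the cool rats was therefore fixed in advance. Its position in those genes is a description and not a separate check. Rat 2 was 1 of the 3 rats with liver transcripts, and its T-cell genes were all below 0 on the log2 scale against the cool rats, in 23 of 23.

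A fit over 50 rats took the project code as a term, with amphetamine rats tying the projects together. It tested 13560 genes and called 837 higher, 6.17%, and 378 lower, 2.79%. Of these, 426 higher and 249 lower were among the 945 and 619 called in the unadjusted comparison. In these fits 0 genes were called in opposite directions. RPS29, called higher without the project term, had an estimate below 0 with it. Hspa1b had a log2 fold change of 12.14 (adjusted p = 3.80e-07), Hsph1 of 7.54 (adjusted p = 2.06e-07) and Gbp2 of -2.22 (adjusted p = 4.52e-04). In the interferon list 11 of 24 were called lower and 0 higher. The neutrophil list kept 1 lower call of 4 and the NK and cytotoxic list 2 of 9. The T-cell list had 4 of 23 called lower in this fit. S100a9 (adjusted p = 0.097), Camp (adjusted p = 0.0998), Alpl (adjusted p = 0.3) and Ncr1 (adjusted p = 0.0528) no longer passed. The reticulocyte, platelet and cell cycle lists had 1, 1 and 0 genes called higher, and Tfrc had 0.90 (adjusted p = 0.422), Rrm2 -1.28 (adjusted p = 0.0755) and Tnf -0.96 (adjusted p = 0.227). Ribosomal protein genes changed sign, with a median of 0.36 before and −0.34 after adjustment, so no direction is given for that list.

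The adjusted fit rested on 39 C rat 2. Without it, 49 rats gave 51 genes higher and 29 lower, of which 50 and 28 were called in the comparison of 16 with 5 rats. The 51 held 10 chaperone identifiers, with Hspa1b at 11.40 (adjusted p = 5.77e-06), Hsph1 at 7.18 (adjusted p = 5.37e-06) and Hspa8 at 2.26 (adjusted p = 0.0253). Hspd1 no longer passed, at 3.33 (adjusted p = 0.117). Zfand2a, Akr1b8, P4ha1 and Egln3 were still called higher, and Gbp2, Herc6, Usp18, Mdm1, Tmco4, Cyr61 and DNAJC9 still lower. Rsad2 was -2.13 (adjusted p = 0.107) and S100a8 -1.84 (adjusted p = 0.198). No monocyte, platelet, NK or neutrophil gene named above passed in this fit.

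**Figure D4:**
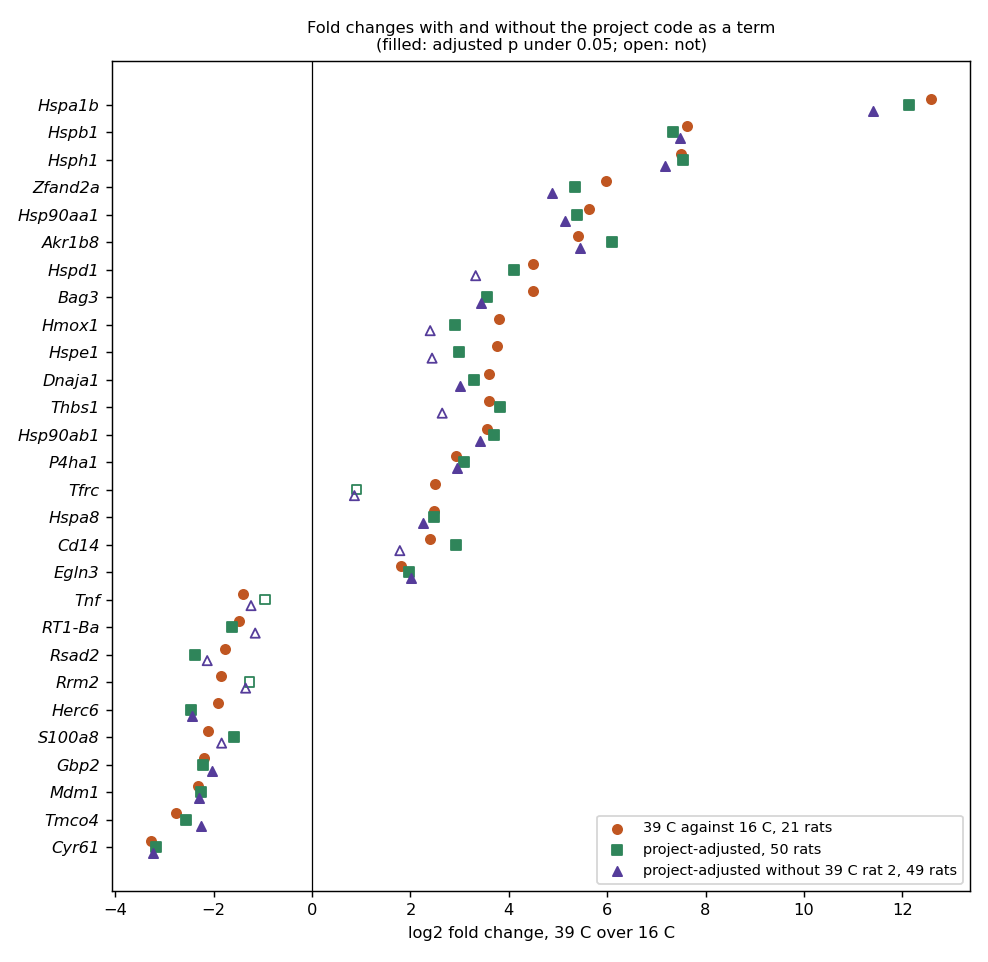
Log2 fold changes of 28 named genes, 39 C over 16 C, in the comparison of 21 rats (orange circles), after adjustment for project over 50 rats (green squares) and after adjustment without 39 C rat 2 (purple triangles), where filled symbols have an adjusted p under 0.05. The estimates for Hspa1b, Hsph1, Hsp90aa1, Gbp2 and Cyr61 keep their direction and stay filled, whereas Tfrc, Tnf and Rrm2 turn open with the project term.

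Liver transcripts were a further difference between the groups. A list of 50 plasma protein and liver enzyme genes was written after such genes had been seen among the calls, so it is described without a test of its own. Of 42 identifiers tested, 30 were called higher at 39 C and 0 lower. Alb, serum albumin, was 9.65, 0, 4.63, 5.47 and 3.98 normalized counts in 16 C rats 1 to 5 and ran from 2.17 through a median of 387 to 98300 at 39 C (log2 fold change 11.68 ± 3.16 (SE), adjusted p = 0.0181). Rats 2, 9 and 12 held 83590, 66610 and 98300 of these counts, while the next highest rat held 1034. In 41 of the 42 identifiers these 3 rats were the 3 highest of the 21. The summed list lay above every rat at 16 C in 12 of 16 rats at 39 C, and in 9 of 13 without these 3. The comparison without these 3 rats called 15 of 23 identifiers tested higher. The adjusted fit called 40 higher, and 0 when rat 2 was left out. Saline rats at 22.5 C held 3.24 to 188 CPM of the list. Over all genes, these 3 rats were the 3 highest in 58 of the 945 called higher (6.14%) and in 2.12% of those tested.

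The 6 saline rats at 22.5 C showed on which side of room temperature each group lay. They shared no project with either group, so temperature and project cannot be told apart here, and both comparisons use the same 6 rats. Against 22.5 C, edgeR called 2178 genes higher at 39 C (16.6% of 13149) and 1962 lower (14.9%). At 16 C against 22.5 C it called 20 genes higher (0.152%) and 1 lower (0.00761%). Normalized over these 27 rats, Hspa1b was 8.98 to 17.5 at 22.5 C, 5.44 to 12.8 at 16 C and 1457 to 243130 at 39 C. Its log2 fold change against 22.5 C was 12.08 (adjusted p = 2.11e-07) at 39 C and -0.50 (adjusted p = 0.817) at 16 C. Hsph1 was 347 to 608 at 22.5 C, 304 to 579.9 at 16 C and 14451 to 277980 at 39 C, so the cool and room temperature rats overlapped in both chaperones and the hot rats did not reach them.

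Genes called lower at 39 C than at 16 C stood in different places at 22.5 C. Against 22.5 C, the interferon list had a median log2 fold change of -0.24 at 39 C and 0.69 at 16 C. The neutrophil list had 0.42 and 0.96, the NK and cytotoxic list -0.80 and 0.03, and the T-cell list -1.48 and -0.56. Gbp2 was 1064 to 2247 at 22.5 C, 3806 to 8397 at 16 C and 639 to 2371 at 39 C, and its log2 fold change against 22.5 C was -0.38 (adjusted p = 0.161) at 39 C and 1.83 (adjusted p = 0.00296) at 16 C. For Gbp2 the test passed at 16 C and not at 39 C. Rsad2 was 16843 to 31392 at 22.5 C, 12507 to 30813 at 16 C and 1754 to 18689 at 39 C, with -2.05 (adjusted p = 3.36e-05) at 39 C and -0.24 (adjusted p = 0.797) at 16 C, so here the test passed at 39 C and not at 16 C. Herc6 gave -1.09 (adjusted p = 2.61e-04) and 0.85 (adjusted p = 0.179), Cd8a -1.49 (adjusted p = 3.81e-05) and -0.58 (adjusted p = 0.385), and RT1-Ba -1.76 (adjusted p = 7.15e-05) and -0.26 (adjusted p = 0.759). S100a8 gave -0.35 (adjusted p = 0.536) and 1.78 (adjusted p = 0.183), Per2 -0.36 (adjusted p = 0.25) and 1.11 (adjusted p = 0.141), and Rrm2 0.67 (adjusted p = 0.213) and 2.55 (adjusted p = 0.0429). Cirbp and Rbm3 were lower at 39 C than at 22.5 C, with log2 fold changes of -1.41 (adjusted p = 0.00412) and -1.10 (adjusted p = 0.00318), although they did not pass the test against 16 C.

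**Figure D5:**
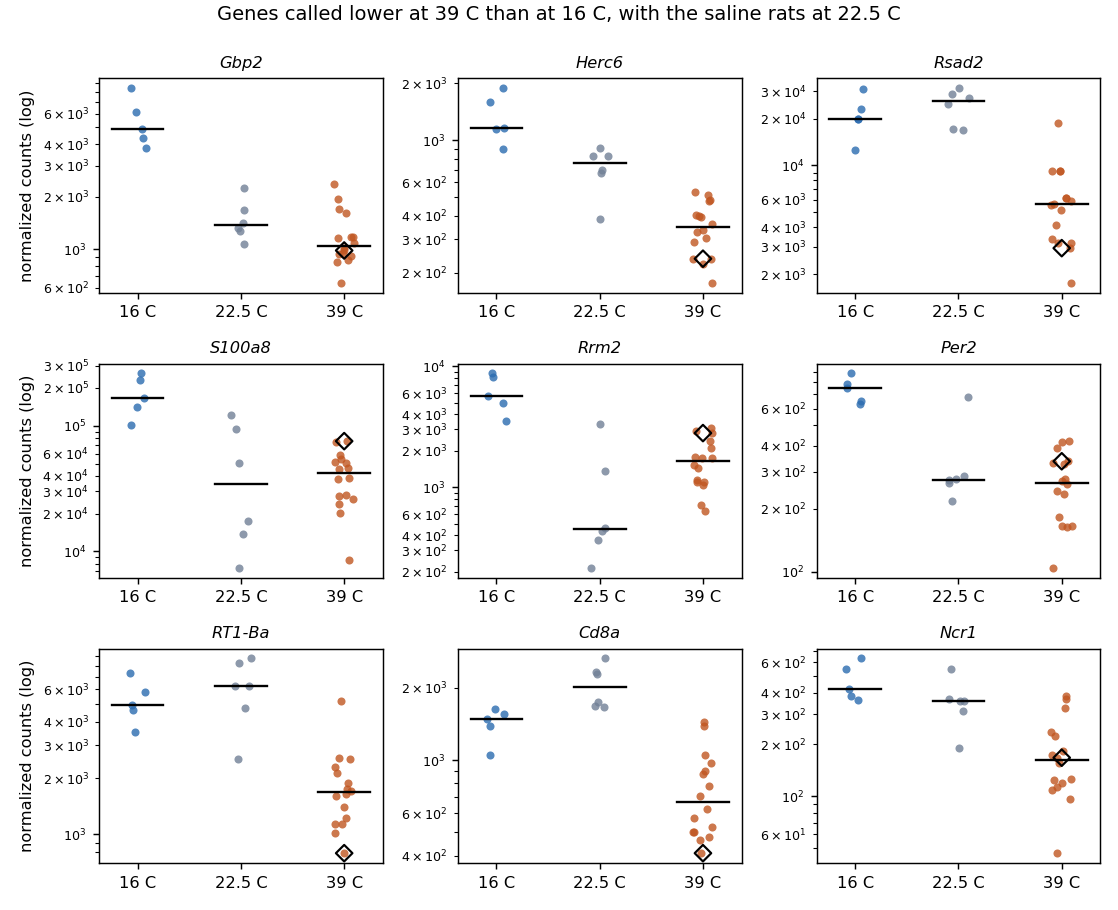
Normalized counts (log axes) of 9 genes called lower at 39 C than at 16 C, in each saline rat at 16 C (blue), 22.5 C (grey) and 39 C (orange), with medians as bars and 39 C rat 2 as an open diamond. Rsad2, RT1-Ba and Ncr1 overlap between 16 and 22.5 C and have their lowest medians at 39 C, while Gbp2, Per2 and S100a8 at 22.5 C reach down to the levels of the hot rats.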

How the data were processed

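Globin-depleted whole blood RNA was sequenced as paired 51-base reads by the authors, who clipped and aligned the reads and estimated counts per gene with RSEM 1.2.0 over Bowtie 0.12.9 on Ensembl release 70 (rn5), and base calling used CASAVA 1.8.2, per the submitters' processing notes. The deposited values are expected counts, which were rounded here to whole numbers. The members and gene lists were chosen with earlier results of these data known. Genes listed in all 21 files with at least 10 counts in at least 5 rats were tested with edgeR 4.0.16 (quasi-likelihood, TMM, Benjamini-Hochberg), in R 4.3.3. Adjusted p-values in the text are from edgeR. SE is the log2 fold change divided by the square root of F. DESeq2 1.42.0 gave normalized counts, scaled over 21 rats or, with 22.5 C, over 27, and an alternative test. DESeq2 is the tool of the study's methods. The methods' criterion of over 5000 Mb (myoglobin) counts was an alternative. Only 39 C rat 12, at 9909 Mb counts, exceeded it. The project code in the file names was added as a term over 50 rats. Genes named were a fixed set of 22 symbols where tested, up to 4 called members of each list by size of change, and the 10 largest rises and falls with no overlap between groups and rat 2 outside the cool range on the same side, where list members and the largest changes had to average 100 or more normalized counts at one of the temperatures. The liver list, the neutrophil sum without S100a8 and S100a9, the lists of calls without 39 C rats 2, 9 and 12 and the adjusted fit without rat 2 were added after the data were seen. In simulated data with 200 changed genes among 12406, the 16 against 5 comparison recovered 98% of genes changed by a log2 of 2 and 39% of those changed by 1, and 7.43% of its 148 calls were false. With the project term, on 13381 genes, it recovered 81% and 12%. The simulated counts carried no project effect and took each gene's spread from the common trend. These shares therefore do not describe the calls of the real comparison. Each rat is 1 library, the common biological coefficient of variation was 0.489, and 127 tested identifiers had counts identical to another's. No 2 libraries were duplicates, the smallest chi-square per gene between 2 rats of a group being 54.2. Promoter letters came from RefSeq, build GRCr8, of which no genome was used here. Values of some genes are not reported here.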

Additional observations from a re-analysis of the deposited data

Results flagged for a closer look

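In 111 groups of 5 cool rats examined (1 value per gene named or library measure), 12 had a single rat whose gap to its nearest neighbour took more than 0.71 of the group's range, where chance gives about 1 in 20. 16 C rat 2 was the highest in 6 of them. It held 7356 normalized counts of Hsp90ab1 against 5121 to 5710 in the other 4 rats, 5932 of Nfkbia against 1616 to 2808, 2303 of Il22ra2 against 502.6 to 813.3, 735.3 of Sema4f against 302.1 to 390.3, 484.6 of 9130014G24Rik against 184.2 to 270.5 and 1845 of Card10 against 811.4 to 890.3. 16 C rat 1 was the extreme in 3 genes, highest in Hspb1 at 14.03 against 0.7951 to 2.515 and in Trim58 at 707.8 against 363.0 to 408.7, and lowest in Mdm1 at 267.5 against 457.2 to 527.4. 16 C rat 3 was highest in Clec4b2, at 1021 against 349.0 to 474.5. Among library measures, 1 cool rat detected 14950 genes against 14460 to 14580 in the others, and 1 had a log2 of Mb counts plus 1 of 7.044 against 1.585 to 2.807.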

How the results depend on the processing

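The 945 genes higher and 619 lower at 39 C became 1493 and 790 with DESeq2's Wald test. In simulated data without a project effect, 19.2% of DESeq2's calls were false, against 7.43% for edgeR. Neither value gives the false share of the calls made here. Leaving out each cool rat in turn gave 451 to 540 higher and 408 to 458 lower, and leaving out each rat at 39 C gave 819 to 1115 higher and 576 to 817 lower. The project term left 837 higher and 378 lower, rat 2 alone 31 and 1, and the project term without rats 2, 9 and 12 gave 93 and 51. The project-adjusted fit without rat 2 gave 51 and 29. Normalization by DESeq2 size factors (941 and 654), robust dispersion (894 and 614), no count filter (746 and 614), hemoglobin genes left out (925 and 672), hemoglobin share as a covariate (729 and 513) and leaving out rats over 5000 Mb counts (1000 and 687) kept both counts within 1.5 times. With replicate number as a block, 10 rats gave 544 higher and 404 lower, against 813 and 473 in the same 10 rats without the block. The numbers do not pair the rats, since same-number correlations ran from −0.0842 to 0.0953 and 1 of 5 cool rats correlated best with its own number. Nfkbia turned to 0.0073 (log2) in rat 2 alone, and RPS29 to −0.50 with the project term, −1.04 in rat 2 alone and −0.20 with the project term without rats 2, 9 and 12, and the cause was not tested. Of 97 called genes named, 11 kept their call in all 34 settings.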
